A study of Mus musculus with 6 samples.

Results

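The cytoplasmic ribosomal protein genes encode the proteins of the ribosome that translates nuclear messages in the cytosol. Members were the gene symbols of the table that begin with Rpl or Rps and a digit, or with Rplp or Rpp and one of the digits 0, 1 and 2, together with Rpsa and Fau. Symbols with -ps, which mark pseudogenes, and the ribosomal S6 kinases were left out. By this rule 95 of 22800 gene symbols were members. Of these, 78 were conventional genes, 46 of the large (60S) subunit and 32 of the small (40S) subunit. A further 12 were copies or like genes, such as Rpl22l1 and Rps27rt. The other 5 symbols fit the spelling of the rule but are no ribosomal proteins: Rpp14, Rpp21, Rpp25 and Rpp25l encode proteins of RNase P and RNase MRP, and Rps19bp1 encodes a protein that binds Rps19. The results below are therefore given mainly for the 78 conventional genes, all of which exceeded 100 FPKM in every library.

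RNA was measured in cells of mouse bronchoalveolar lavage fluid, the saline wash of the airways and air sacs, which in healthy mice holds mostly macrophages. The sulfatide group was given 20 µg of sulfatide, a sulfated glycolipid, into the peritoneal cavity (3 libraries, replicates 1, 2 and 3). The vehicle group was given the carrier alone (3 libraries, replicates 2, 3 and 4). The labels used here do not give strain, genotype or age, whether the libraries came from separate animals, or whether the lungs had undergone the ischemia and reperfusion named in the title of the series. The p-values therefore set the difference between the groups against no more than the spread of these libraries within a group. Part or all of that spread may be technical. Values are FPKM, a fragment number divided by transcript length and by library total, and fold changes are sulfatide against vehicle on the log2(FPKM + 1) scale from a limma fit across 10405 genes, with p-values adjusted by Benjamini and Hochberg over all of them. Genes with an adjusted p below 0.05 were called.

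Ribosomal proteins assemble with ribosomal RNA in the nucleolus, in amounts that match each other, and their messages are among the most abundant of most cells. In mammals these messages start with a C followed by a run of pyrimidines, the 5′ terminal oligopyrimidine (TOP) motif, through which the kinase mTOR and the RNA-binding protein Larp1 set their translation and stability. Macrophages change ribosome production when they grow or are activated. Several ribosomal proteins also act outside the ribosome, among them Rpl5 and Rpl11, which bind Mdm2 and thereby stabilise p53.

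Of the 78 conventional genes, 32 rose with sulfatide and 0 fell, whereas 8.31% of all genes tested rose and 10.4% fell. The median log2 fold change of the 78 genes was 0.31 (range 0.04 to 0.98), against 0.04 over all genes tested. At an unadjusted p below 0.05 there were 64 of 78 ribosomal protein genes and 3517 of 10405 genes in all. In 60 of the 78 genes all sulfatide libraries lay above all vehicle libraries, which held for 18.6% of all genes tested. The fold changes of all 78 were above 0, as were 76 after rescaling to TPM (each library divided by its FPKM sum), 76 after quantile normalization and 63 after removal of the trend of fold change with transcript length. Over all 92 tested members by the rule, 34 rose and 0 fell, with a median of 0.31.

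**Figure D1:**
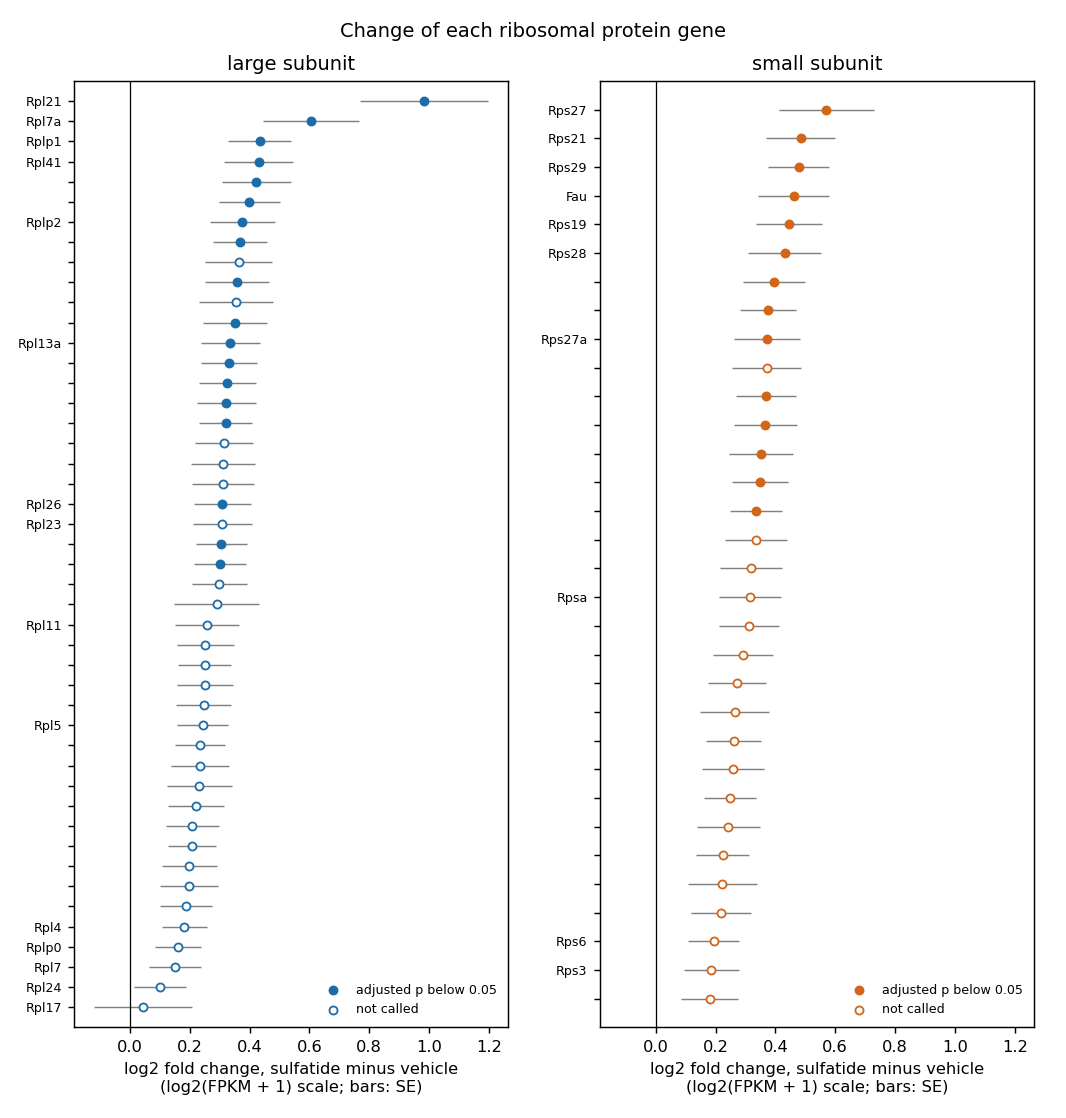
Log2 fold change (sulfatide against vehicle, log2(FPKM + 1) scale) of each of the 78 conventional ribosomal protein genes with its standard error, ordered by size within the large (left) and the small subunit (right); filled points mark genes with an adjusted p below 0.05, and only part of the genes are labelled. All points lie above 0, from 0.04 (Rpl17) to 0.98 (Rpl21).

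The count of called genes rested on few libraries. Without vehicle replicate 2, limma called 0 of the 78 genes, with 38 at an unadjusted p below 0.05 and a smallest adjusted p of 0.0682. It called 1 without sulfatide replicate 1 (Rpl21), 1 without sulfatide replicate 3 (Rpl21) and 2 without vehicle replicate 4 (Rps27 and Rps29), but 35 without sulfatide replicate 2 and 57 without vehicle replicate 3. Of all genes tested, 2.56% were called higher without vehicle replicate 2, 3.35% without sulfatide replicate 1, 4.25% without sulfatide replicate 3 and 4.10% without vehicle replicate 4, so in these 4 fits the share called in the family was no higher than among all genes. The share of all genes was 7.68% without sulfatide replicate 2 and 13.8% without vehicle replicate 3. The median log2 fold change lay between 0.25 and 0.37 in these 6 fits, and 0 of the 78 genes were called lower in any of them.

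Summed over the 78 genes, ribosomal protein messages took 12.8%, 11.4% and 12.0% of all FPKM in sulfatide replicates 1, 2 and 3, against 10.0%, 11.3% and 9.97% in vehicle replicates 2, 3 and 4. The means were 12.1% ± 0.71 in sulfatide libraries and 10.4% ± 0.74 in vehicle libraries (SD, n = 3 each). The groups did not overlap, but sulfatide replicate 2 and vehicle replicate 3 nearly met. Saa3, an acute-phase protein gene, took 6.52% to 6.93% of the FPKM sum in sulfatide libraries and 2.40% to 2.58% in vehicle libraries, and with Saa3 left out of the sum the ribosomal share was 12.9% with sulfatide and 10.7% with vehicle. In bulk RNA, fewer cells of a type and less RNA per cell cannot be told apart.

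Within each group the 78 genes moved together from library to library. Sulfatide replicate 1 was the highest of its group in 71 genes, which is 91.0% of them, against 45.5% of all genes tested. Sulfatide replicate 2 was the lowest of its group in 66 genes, or 84.6%, against 38.0% of all genes. Vehicle replicate 3 was the highest of its group in 77 genes, or 98.7%, against 50.9% of all genes. Sulfatide replicate 2 therefore lay at or below vehicle replicate 3 in 14 genes, whereas sulfatide replicate 1 lay above all vehicle libraries in 77 and sulfatide replicate 3 in 71.

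**Figure D2:**
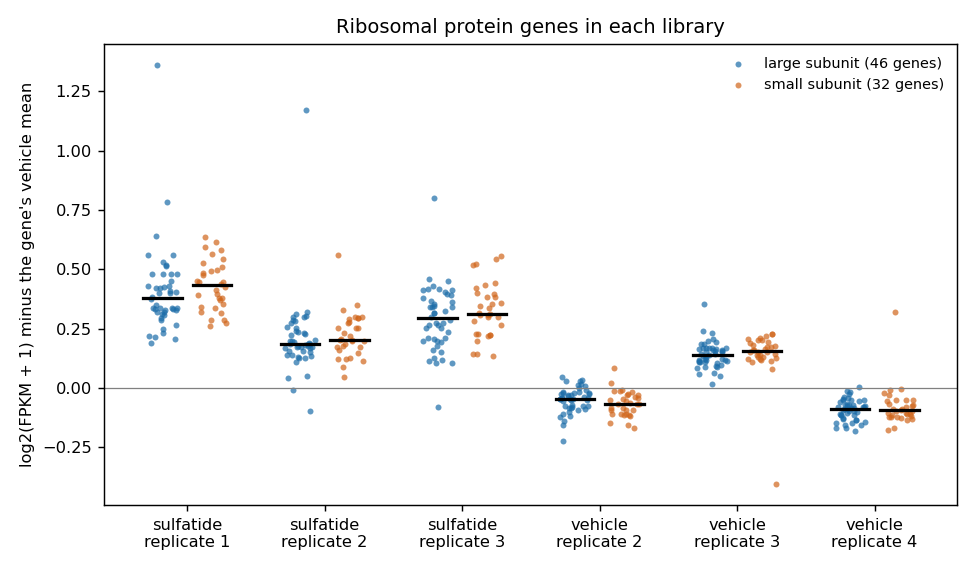
Level of each of the 46 large-subunit and 32 small-subunit genes in each library, as log2(FPKM + 1) minus the gene's mean over the vehicle libraries, with sulfatide libraries on the left; points are genes and bars their medians. Vehicle replicate 3 stands above the other vehicle libraries and sulfatide replicate 2 below the other sulfatide libraries, and the low small-subunit point of vehicle replicate 3 is Rps27.

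Genes of both subunits rose. Of the 46 large-subunit genes 18 rose, with a median log2 fold change of 0.30, and of the 32 small-subunit genes 14 rose, with a median of 0.33. The medians differed by -0.02 (large minus small). The mean log2(FPKM + 1) level of large-subunit genes minus that of small-subunit genes was -0.269, -0.261 and -0.283 in sulfatide replicates 1, 2 and 3 and -0.228, -0.247 and -0.259 in vehicle replicates 2, 3 and 4. The sulfatide libraries all lay below the vehicle libraries on this measure, sulfatide replicate 2 only just below vehicle replicate 4, and the difference was not tested. The ratio of summed large-subunit to summed small-subunit FPKM was 1.36, 1.37 and 1.35 in sulfatide replicates 1, 2 and 3 and 1.38, 1.37 and 1.37 in vehicle replicates 2, 3 and 4, and here the groups overlapped.

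The largest change belonged to Rpl21, a protein of the large subunit. It had 372, 326 and 193 FPKM in sulfatide replicates 1, 2 and 3, against 134, 166 and 135 FPKM in vehicle replicates 2, 3 and 4. Each sulfatide library lay above each vehicle library, but replicate 3 stood far below the other sulfatide libraries. The log2 fold change was 0.98 ± 0.21 (SE), adjusted p = 0.0147, or 2.05-fold. The call was lost without vehicle replicate 2 (adjusted p = 0.0682) or vehicle replicate 4 (adjusted p = 0.0526).

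Rpl7a, a protein of the large subunit, had 604, 410 and 611 FPKM in sulfatide libraries, against 331, 405 and 321 FPKM in vehicle libraries. Its lowest sulfatide value, in replicate 2, was just above its highest vehicle value, in replicate 3. The log2 fold change was 0.60 ± 0.16 (adjusted p = 0.0312).

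The annotated starts of Rpl7a and 7 other members are printed to show which of them hold the letters of a TOP motif. The windows run from 60 bases before to 30 bases from the RefSeq start on (GRCm38.p6), 5′ to 3′ on the gene's strand. They are shown for the 4 genes with the largest fold change that had a RefSeq entry, and then for the 4 with the smallest, leaving out Rpl17. Capitals mark CCGGAAG, the core that Ets factors such as Gabpa bind, AAGATGG, the core that YY1 binds (CCATCTT on the other strand), and the whole pyrimidine stretch that holds a C followed by at least 4 C or T within 5 bases of the start. That stretch can begin further upstream, as in Rpl7a.
Rpl7a (chr2:26910747-26910836, plus strand): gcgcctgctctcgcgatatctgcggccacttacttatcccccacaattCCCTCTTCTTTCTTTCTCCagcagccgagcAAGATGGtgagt
Rps27 (chr3:90213619-90213708, minus strand): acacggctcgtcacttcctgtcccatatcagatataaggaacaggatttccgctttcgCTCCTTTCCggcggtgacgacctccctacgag
Rps21 (chr2:180257319-180257408, plus strand): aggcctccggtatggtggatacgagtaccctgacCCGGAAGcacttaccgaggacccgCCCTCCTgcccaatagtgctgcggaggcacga
Fau (chr19:6057887-6057976, plus strand): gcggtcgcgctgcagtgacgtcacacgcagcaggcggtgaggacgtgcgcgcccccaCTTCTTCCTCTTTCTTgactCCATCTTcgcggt
Rpl24 (chr16:55966215-55966304, plus strand): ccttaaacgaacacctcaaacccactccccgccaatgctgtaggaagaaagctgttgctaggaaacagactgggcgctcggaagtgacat
Rplp0 (chr5:115559407-115559496, plus strand): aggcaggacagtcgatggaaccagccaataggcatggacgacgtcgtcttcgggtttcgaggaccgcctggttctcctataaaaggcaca
Rpl4 (chr9:64173327-64173416, plus strand): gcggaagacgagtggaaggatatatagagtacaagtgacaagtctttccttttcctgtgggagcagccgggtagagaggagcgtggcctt
Rps3 (chr7:99483680-99483769, minus strand): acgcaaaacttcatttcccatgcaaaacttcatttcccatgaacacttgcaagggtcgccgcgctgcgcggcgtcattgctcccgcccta
The first 4 windows each hold a pyrimidine run near the annotated start, and the last 4 hold none of these letters as searched. The Rpl4 window does hold a long pyrimidine run, but that run ends a few bases before the annotated start and was not counted. The search therefore cannot show that the last 4 messages lack a TOP motif. These 8 genes were picked from both ends of the fold changes, so the contrast between them is a description. The annotated start can also lie some bases from the start used in these cells.

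RefSeq had a promoter entry of 300 bases for 58 of the 78 genes. A pyrimidine run within 5 bases of the start was found in 27 of them, or 46.6%, against 20.3% of tested genes with an entry and 18.5% of all entries. With the run exactly at the start the shares were 22.4% of the ribosomal protein genes, 2.28% of tested genes and 2.49% of all entries. The Ets core CCGGAAG, on either strand, was in 23 of the 58 promoters, or 39.7%, against 20.6% of tested genes and 9.12% of all entries. The YY1 core AAGATGG, on either strand, was in 9 of the 58, or 15.5%, against 7.93% of tested genes and 6.48% of all entries. The Ets and YY1 cores overlapped in 0 of these promoters; overlaps of the pyrimidine run with them were not counted. The 27 genes with a run near the start had a median log2 fold change of 0.32 (0.19 to 0.60), with 15 called, and the 31 genes without one a median of 0.27 (0.10 to 0.45), with 9 called. Those ranges overlap widely, and the median transcript lengths were 937 and 833 bases. Genes with the Ets core had a median of 0.30 (10 of 23 called) and genes without it 0.32 (14 of 35 called).

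Among the proteins of the 40S subunit, Rps27, a zinc-finger protein, had 922, 901 and 900 FPKM in sulfatide libraries, against 648, 461 and 763 FPKM in vehicle libraries. The sulfatide libraries were nearly equal while the vehicle libraries were spread, with replicate 3 lowest, the opposite of most of the family. The log2 fold change was 0.57 ± 0.16 (adjusted p = 0.0380), or 1.45-fold. Leaving out vehicle replicate 3 gave a log2 fold change of 0.37, and leaving out vehicle replicate 4 one of 0.73.

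Rps27rt, a copy of Rps27 on chromosome 9 (114982366 to 114982739, minus strand, mm10), has the same 255 coding bases as Rps27 on chromosome 3 (90212671 to 90213651, minus strand), with 0 differences in the GENCODE vM21 annotation. The related Rps27l, on chromosome 9 (66946086 to 66949512, plus strand), differs at 61 bases (76.1% identity). Both coding sequences are given because they show which copies a read could tell apart, with capitals in Rps27l at the bases that differ from Rps27.
Rps27: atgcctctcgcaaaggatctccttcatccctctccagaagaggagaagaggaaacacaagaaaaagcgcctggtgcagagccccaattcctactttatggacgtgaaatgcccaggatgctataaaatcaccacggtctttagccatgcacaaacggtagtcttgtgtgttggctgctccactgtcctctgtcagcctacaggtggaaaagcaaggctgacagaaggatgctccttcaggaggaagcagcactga
Rps27l: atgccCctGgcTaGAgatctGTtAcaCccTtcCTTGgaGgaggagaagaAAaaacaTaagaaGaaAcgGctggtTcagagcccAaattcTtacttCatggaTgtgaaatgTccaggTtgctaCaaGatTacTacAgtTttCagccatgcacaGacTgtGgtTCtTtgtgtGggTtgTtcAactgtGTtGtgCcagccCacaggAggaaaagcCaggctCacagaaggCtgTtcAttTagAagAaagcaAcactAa
Rps27rt was listed at 350, 141 and 412 FPKM in sulfatide replicates 1, 2 and 3, against 265, 603 and 126 FPKM in vehicle replicates 2, 3 and 4. Vehicle replicate 3, lowest for Rps27, was highest for Rps27rt, and the groups overlapped (log2 fold change 0.00 ± 0.54, adjusted p = 0.998). Rps27rt took between 13.6% and 56.7% of the sum of the pair.

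How the authors' counting divided reads of identical sequence is not given in the sources used here, so the separate values of Rps27 and Rps27rt are uncertain. Their sum was 1272, 1042 and 1312 FPKM in sulfatide libraries, against 914, 1064 and 889 FPKM in vehicle libraries. Vehicle replicate 3 was then the highest vehicle library, as for most of the family, and lay above sulfatide replicate 2, so the groups overlapped. The ratio of the mean sums, 1209 ± 146 FPKM with sulfatide and 956 ± 94.6 FPKM with vehicle (SD, n = 3 each), was 1.265.

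**Figure D3:**
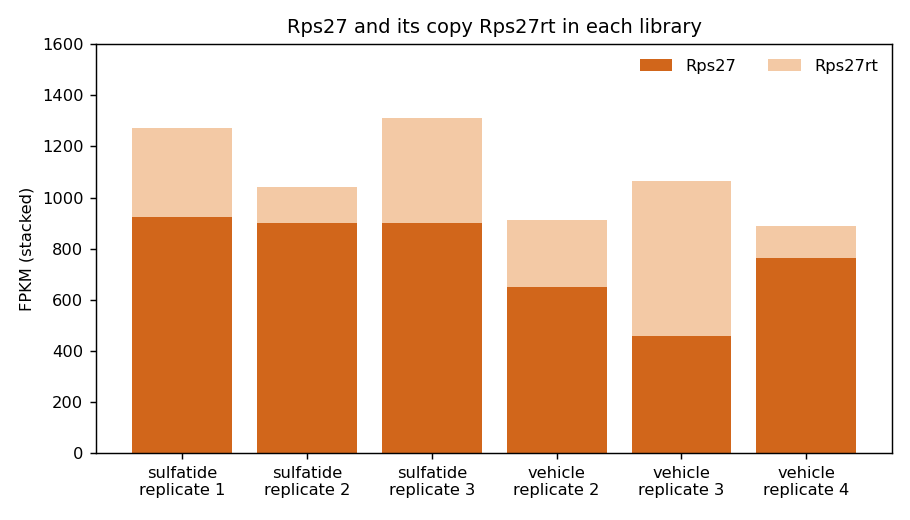
FPKM of Rps27 (lower part of each bar) and of Rps27rt (upper part), stacked for each library with sulfatide left of vehicle, so that the height is their sum. Vehicle replicate 3 is the lowest library for Rps27 (461 FPKM), the highest for Rps27rt (603 FPKM) and the highest vehicle library for the sum (1064 FPKM).

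Rps29, a zinc-binding protein of the 40S head and among the 3 most abundant members, had 4591, 3853 and 4416 FPKM in sulfatide libraries, against 2846, 3365 and 3022 FPKM in vehicle libraries. The groups did not overlap, with the lowest sulfatide value in replicate 2 and the highest vehicle value in replicate 3. The log2 fold change was 0.48 ± 0.10 (adjusted p = 0.0133), the smallest adjusted p among the 78 genes.

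Rps21, a protein of the small subunit, had 1869, 1482 and 1724 FPKM with sulfatide, against 1112, 1364 and 1149 FPKM with vehicle (log2 fold change 0.48 ± 0.11, adjusted p = 0.0204). Rps19, the gene most often mutated in human Diamond-Blackfan anaemia, had 1306, 1143 and 1218 FPKM with sulfatide, against 810, 1044 and 850 FPKM with vehicle (0.45 ± 0.11, adjusted p = 0.0235). In both genes the groups were apart, and sulfatide replicate 2 and vehicle replicate 3 were the nearest libraries. Rps28, a small-subunit protein, averaged 1700 ± 199.9 FPKM with sulfatide and 1263 ± 178 FPKM with vehicle (SD, n = 3 each; 0.43 ± 0.12, adjusted p = 0.0399).

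Fau and Rps27a encode ribosomal proteins of the small subunit made as fusions, Fau to a ubiquitin-like protein and Rps27a to ubiquitin itself. Fau had 2553, 2089 and 2516 FPKM in sulfatide libraries, against 1627, 1989 and 1591 FPKM in vehicle libraries, with no overlap. The log2 fold change was 0.46 ± 0.12 for Fau (adjusted p = 0.0273) and 0.37 ± 0.11 for Rps27a (adjusted p = 0.0475).

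Other 40S genes of known extra roles were not called. Rps3, which in human and mouse cells also binds the RelA subunit of NF-kappaB, averaged 1768 ± 96.8 FPKM with sulfatide and 1557 ± 145 FPKM with vehicle (SD, n = 3 each; log2 fold change 0.19 ± 0.09, adjusted p = 0.195). Rps6, the substrate of the S6 kinases below mTOR, averaged 1618 ± 78.7 FPKM with sulfatide and 1416 ± 102 FPKM with vehicle (0.19 ± 0.09, adjusted p = 0.151). Rpsa, also known as a receptor for laminin, had a log2 fold change of 0.31 ± 0.10 (adjusted p = 0.0658).

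The stalk of the large subunit, which recruits translation factors, consists of Rplp0 and dimers of Rplp1 and Rplp2. Rplp1 had 5215, 4415 and 4714 FPKM in sulfatide libraries, against 3401, 3975 and 3260 FPKM in vehicle libraries (log2 fold change 0.43 ± 0.11, adjusted p = 0.0232). Rplp2 had 2696, 2224 and 2371 FPKM with sulfatide, against 1847, 2091 and 1687 FPKM with vehicle (0.37 ± 0.11, adjusted p = 0.0435). Both rose, with groups apart. Rplp0, the scaffold of the stalk, had 2592, 2479 and 2419 FPKM with sulfatide, against 2206, 2257 and 2237 FPKM with vehicle. Its groups were apart too, with little spread, but its log2 fold change of 0.16 ± 0.08 did not pass the test (adjusted p = 0.175), and whether it differed from that of Rplp1 was not tested.

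The most abundant member was Rpl41, the smallest ribosomal protein, which ranked 7 among all genes by mean FPKM, ahead of Rplp1 at rank 19 and Rps29 at rank 21. FPKM is scaled to the length of the transcript, not of the coding sequence. The annotated Rpl41 transcript has 582 bases, against 499 for Rplp1 and 390 for Rps29. Its coding sequence, on chromosome 10 (transcript 128548114 to 128549305, minus strand, mm10), has 78 bases and 25 codons before the stop, and is printed to show how short it is.
Rpl41: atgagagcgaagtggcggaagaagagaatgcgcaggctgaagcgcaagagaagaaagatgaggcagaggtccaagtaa
Rpl41 had 14261, 11934 and 13017 FPKM in sulfatide libraries, against 8799, 11014 and 9353 FPKM in vehicle libraries. The groups did not overlap, and the log2 fold change was 0.43 ± 0.12 (adjusted p = 0.0326). Mean levels of the 78 genes ranged from 221 to 11400 FPKM with a median of 1517, and 64 exceeded 1000 FPKM. They made up 33 of the 100 genes and 65 of the 200 genes with the highest mean FPKM.

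Rpl5 and Rpl11, which carry the 5S ribosomal RNA into the large subunit and can bind Mdm2, did not pass the test. Rpl5 averaged 1516 ± 89.5 FPKM with sulfatide and 1281 ± 76.9 FPKM with vehicle (SD, n = 3 each; log2 fold change 0.24 ± 0.09, adjusted p = 0.0771), and Rpl11 had a log2 fold change of 0.26 ± 0.11 (adjusted p = 0.122). Rpl23 and Rpl26 have also been linked to the p53 pathway. Rpl26 rose by 0.31 ± 0.09 with an adjusted p of 0.04997, at the very edge of the threshold, and Rpl23 had the same log2 fold change of 0.31 ± 0.10 without passing it (adjusted p = 0.0581). Rpl13a, which in human monocytes leaves the ribosome after interferon gamma and silences a set of inflammatory messages, had 2425, 2118 and 2329 FPKM with sulfatide, against 1667, 2020 and 1768 FPKM with vehicle. Its groups were apart, and it rose by 0.34 ± 0.10 (adjusted p = 0.0454).

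Rpl17, Rpl24, Rpl7, Rplp0 and Rpl4 were among the conventional genes with the smallest fold changes. Rpl17, a protein at the exit of the nascent peptide, had 919, 694 and 703 FPKM in sulfatide libraries, against 636, 949 and 678 FPKM in vehicle libraries. The highest value of all was in vehicle replicate 3, and the groups overlapped (log2 fold change 0.04 ± 0.16, adjusted p = 0.877). Rpl24, which forms part of a bridge between the subunits, had 1961, 1712 and 1866 FPKM with sulfatide, against 1737, 1789 and 1637 FPKM with vehicle (0.10 ± 0.09, adjusted p = 0.442). Its groups overlapped as well, as did those of Rpl7 (0.15 ± 0.09, adjusted p = 0.256). Rpl4, which lines the exit tunnel, had 1089, 1076 and 1051 FPKM with sulfatide, against 915, 988 and 933 FPKM with vehicle, and was not called although its groups were apart (0.18 ± 0.07, adjusted p = 0.124).

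Of the 12 copies and like genes, Rpl10l was listed at 0 in all 6 libraries and Rpl3l at most at 0.18 FPKM, and the other 10 were tested. Their median log2 fold change was 0.31, and 2 of the 10 rose, Rpl37rt and Rpl32l, or 20.0%, against 8.31% of all genes tested. Rpl37rt had 289, 269 and 283 FPKM with sulfatide, against 218, 242 and 228 FPKM with vehicle (0.29 ± 0.08, adjusted p = 0.0343), close to Rpl37 itself (0.31, adjusted p = 0.0388). Rpl32l was low, with 4.94, 3.26 and 4.15 FPKM with sulfatide against 1.18, 2.96 and 1.92 FPKM with vehicle (0.79 ± 0.22, adjusted p = 0.0368). Both calls were lost in 4 of the 6 fits without a library (sulfatide replicates 1 and 3, vehicle replicates 2 and 4). GENCODE vM21 annotates Rpl32l and Rpl6l as processed pseudogenes and Rpl37rt as a processed transcript, so their values may hold reads of the parent genes, and their separate levels are uncertain.

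Among the like genes with a coding sequence of their own, Rpl22l1 had the largest log2 fold change. Rpl22l1, which can take the place of Rpl22 in the ribosome and whose coding sequence has 67.5% of its bases in common with Rpl22, had 415, 278 and 328 FPKM in sulfatide libraries, against 211, 329 and 217 FPKM in vehicle libraries. Vehicle replicate 3 lay above sulfatide replicates 2 and 3, and the gene was not called (log2 fold change 0.44 ± 0.19, adjusted p = 0.138), while Rpl22 rose by 0.33 ± 0.10 (adjusted p = 0.0457). Rpl39l, abundant in testis, had 11.8, 12.6 and 11.3 FPKM with sulfatide, against 11.6, 10.0 and 8.92 FPKM with vehicle, far below Rpl39 at 2703 ± 213 and 2053 ± 213 FPKM (SD, n = 3 each). Rpl39l was not called (0.21 ± 0.12, adjusted p = 0.243) and Rpl39 rose by 0.40 ± 0.10 (adjusted p = 0.0277). Rpl7l1 had 159, 162 and 159 FPKM with sulfatide, against 153, 165 and 153 FPKM with vehicle, with groups that overlapped (0.03 ± 0.08, adjusted p = 0.826).

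Rps27l, Rpl36al, Rpl6l and Rps23rg1 did not pass the test. Rps27l, a p53 target, had 525, 381 and 458 FPKM with sulfatide, against 330, 411 and 308 FPKM with vehicle (0.38 ± 0.14, adjusted p = 0.0946). Rpl36al, with 87.9% of coding bases shared with Rpl36a, had a log2 fold change of 0.33 (adjusted p = 0.0514) beside 0.36 for Rpl36a (adjusted p = 0.0527). Rpl6l had 0.34 (adjusted p = 0.0650) beside 0.20 for Rpl6 (adjusted p = 0.191), and Rps23rg1 had 0.15 (adjusted p = 0.410) beside 0.38 for Rps23 (adjusted p = 0.0253). The differences within these pairs were not tested.

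Transcript length moved with the fold changes in these libraries. The 78 genes were short, with a median transcript length of 882 bases, against 2843 bases over tested genes with a length. Each length is that of the annotated transcript chosen for the symbol. Other isoforms were not tried, and which isoforms these cells use is not known here. Over the 10104 tested genes that were not members, the log2 fold change fell with log2 length (Pearson r = -0.19, Spearman rho = -0.28, across genes, which are not independent replicates). Among transcripts of up to 500 bases, 10 ribosomal protein genes had a median log2 fold change of 0.40 and 74 other genes one of 0.28. From 501 to 700 bases the medians were 0.35 for 13 ribosomal protein genes and 0.29 for 153 others, from 701 to 1000 bases 0.29 for 27 and 0.23 for 418, and from 1001 to 1500 bases 0.25 for 17 and 0.18 for 1058. The ribosomal protein genes thus stood above other genes of like length in each of these bins, by less than above all genes. Above 1500 bases there were 11 ribosomal protein genes, too few for a trend, of which 6 in the bin up to 2000 bases had a median of 0.28, against 0.09 for 1260 others.

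Of the ribosomal protein genes of up to 1000 bases 24 of 50 were called higher, against 20.8% of 645 other genes of that length, and of those over 1000 bases 8 of 28, against 7.15% of 9459. Among other genes of up to 1000 bases with a mean of at least 200 FPKM, 171 genes had a median of 0.26, beside 0.31 for the 50 ribosomal protein genes of that length. Up to 500 bases, the 12 such abundant other genes had a median of 0.42, above the 0.40 of the ribosomal protein genes. After the trend of the non-member genes with length was removed from each library, the median of the 78 genes was 0.08 and 5 were called (Rpl18, Rpl21, Rpl22, Rps15a and Rps20), of which 4 were among the 32. That count is no more than the background, since 7.02% of all genes in that fit were called higher. The lengths used for these genes were long for the family, whose median was 882 bases. They were 2989 bases for Rpl18, 1856 for Rpl21, 2051 for Rpl22, 5179 for Rps15a and 3706 for Rps20. Which genes stay called therefore depends on the transcript chosen for each symbol. Removal of the length trend was chosen after the data were seen. It treats any true change of short genes as a length effect, and the part of length in the result was not tested further.

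**Figure D4:**
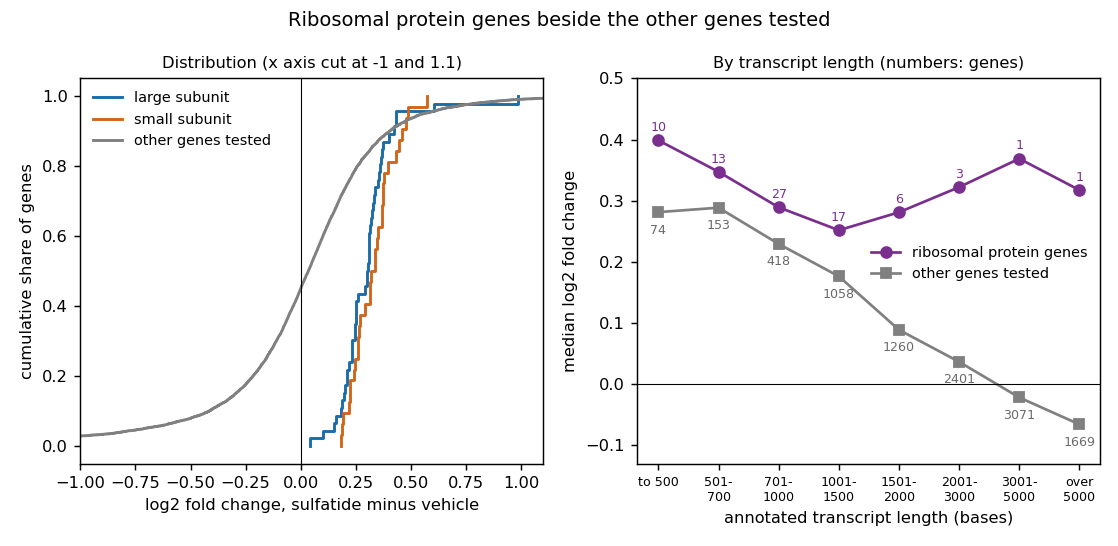
Left, cumulative share of large-subunit genes, small-subunit genes and other genes tested by log2 fold change (sulfatide minus vehicle); right, median log2 fold change by transcript length for ribosomal protein genes and other genes, with the number of genes at each point. The ribosomal protein genes lie above the other genes in every bin, and the medians of the other genes are 0.28 at up to 500 bases and -0.07 above 5000 bases.

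Scaling also moved the size of the shift. After rescaling to TPM, 7 of the 78 genes were called higher (Fau, Rpl21, Rpl7a, Rplp1, Rps19, Rps21 and Rps29), against 4.49% of all genes tested, and the median was 0.20 where that of all genes was -0.06. All genes tested split into 467 higher and 1527 lower on that scale, against 865 higher and 1078 lower on the deposited scale. After quantile normalization 17 of the 78 were called higher, against 10.5% of all genes tested, and the median was 0.19, beside 0.04 over all genes.

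**Figure D5:**
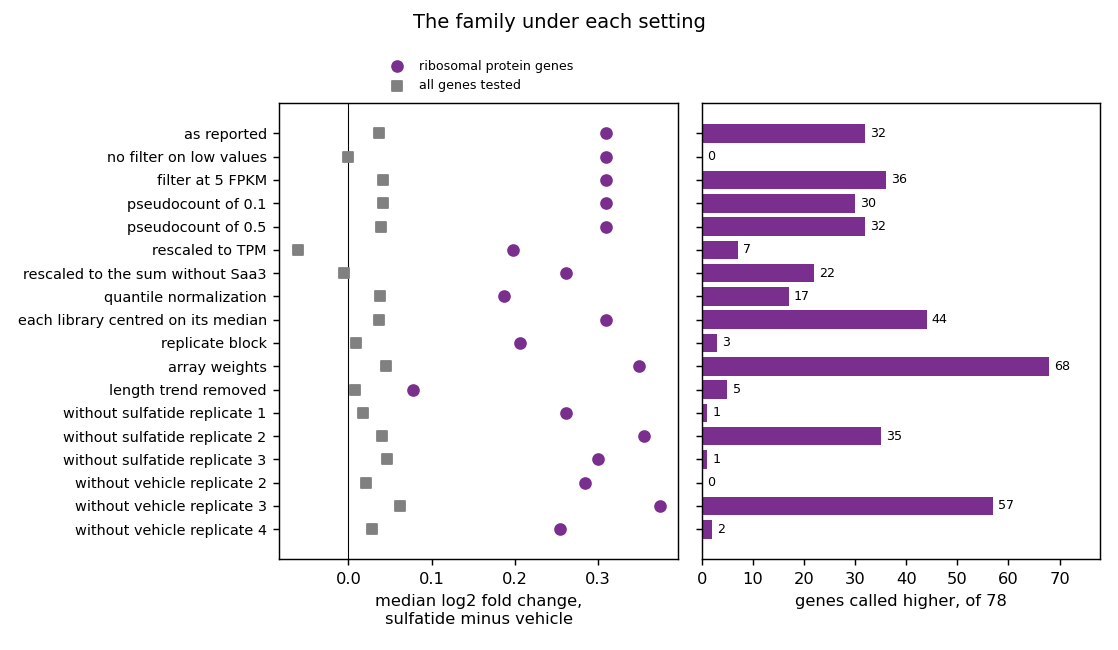
Median log2 fold change (sulfatide minus vehicle) of the 78 ribosomal protein genes and of all genes tested (left) and number of the 78 called higher (right), as reported, under each alternative and with each library left out. The median of the family stays above 0 throughout, between 0.08 and 0.37, while the count runs from 0 to 68.

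Other messages with a TOP motif and genes tied to the ribosome had lower medians, a difference that was not tested. Of 19 tested TOP messages that encode other proteins, mostly translation factors, 1 rose and 0 fell, with 5 at an unadjusted p below 0.05 and a median log2 fold change of 0.16. The 5.26% called higher compare with 8.31% of all genes. The fold change was above 0 in 16 of the 19, against 5756 of 10405 genes tested. In 11 of the 19 all sulfatide libraries lay above all vehicle libraries, which held for 18.6% of all genes tested. The translation elongation factors Eef1a1 (0.13, adjusted p = 0.298), Eef2 (-0.06, adjusted p = 0.645) and Eef1b2 (0.27, adjusted p = 0.0550), the ribosome-bound scaffold Rack1 (0.14, adjusted p = 0.275) and the histone chaperone Nap1l1 (0.34, adjusted p = 0.0672) were not called. Of 79 mitochondrial ribosomal protein genes, which encode a separate ribosome, 10 rose and 0 fell, with a median of 0.18; the 12.7% called higher are near the 8.31% of all genes. Mrpl41 (0.73, adjusted p = 0.00425), Mrpl52 (0.55), Mrpl57 (0.46) and Mrpl51 (0.53) had the smallest p, and the calls of the first 3 held without any 1 library, while that of Mrpl51 was lost without vehicle replicate 2 or 4. The number of these genes called higher was 3 without vehicle replicate 2 or 4, 4 without sulfatide replicate 1, 5 without sulfatide replicate 3 and 29 without vehicle replicate 3.

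Genes that build ribosomes held few calls. Of 40 ribosome biogenesis genes limma called 0 higher and 3 lower, with 6 at an unadjusted p below 0.05 and a median of 0.03; the 7.5% called lower are near the 10.4% of all genes. The fallen genes were Wdr43 (-0.39, adjusted p = 0.0193) and Rrs1 (-0.38, adjusted p = 0.0395), nucleolar assembly factors, and Eif6 (-0.25, adjusted p = 0.0477), which keeps the large subunit from joining the small one too early. The call of Eif6 was lost in all 6 fits without a library, that of Rrs1 in 5, all but the fit without vehicle replicate 2, and that of Wdr43 without sulfatide replicate 3 or vehicle replicate 2. Of 12 tested genes of RNA polymerase I transcription, 5 subunits and 7 factors, 0 fell and 2 subunits rose. The 16.7% called higher compare with 8.31% of all genes. The risen genes were Polr1c (0.47, adjusted p = 0.0353) and Polr1d (0.47, adjusted p = 0.0251), both of which RNA polymerase III shares. Both calls were lost without sulfatide replicate 1 or 3 or vehicle replicate 2 or 4. Of 16 ribosome rescue and quality control genes 0 rose and 1 fell (4 at an unadjusted p below 0.05), Ascc3, a helicase that splits collided ribosomes (-0.84, adjusted p = 0.00142). The 6.25% called lower in that list compare with 10.4% of all genes.

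Among 23 tested regulators of ribosome production, 0 rose and 3 fell (5 at an unadjusted p below 0.05), Larp1, Myc and Max. The 13.04% called lower are near the 10.4% of all genes tested, so the values below describe single genes and not the list. Larp1 had 17.8, 23.5 and 18.7 FPKM in sulfatide libraries, against 31.4, 26.3 and 30.4 FPKM in vehicle libraries (log2 fold change -0.54 ± 0.13, adjusted p = 0.0190). Myc, a transcription factor that drives ribosome production, had 6.79, 10.7 and 6.32 FPKM with sulfatide, against 14.2, 13.9 and 15.0 FPKM with vehicle (-0.81 ± 0.17, adjusted p = 0.0117). Neither gene had overlapping groups, and sulfatide replicate 2, lowest of its group for most ribosomal proteins, was the highest of its group for both. Max, the partner of Myc, fell by 0.46 (adjusted p = 0.00843). The call of Larp1 was lost without sulfatide replicate 1 or 3 or vehicle replicate 2 or 4, that of Max without vehicle replicate 2, and that of Myc in none of these fits. Mtor (-0.16, adjusted p = 0.398), Rps6kb1 (0.01, adjusted p = 0.959) and Eif4ebp1 (0.22, adjusted p = 0.0728) were not called.

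Some markers of dividing cells also rose. The summed level of 8 such markers was 1256, 969 and 865 FPKM in sulfatide replicates 1, 2 and 3, against 714, 865 and 618 FPKM in vehicle replicates 2, 3 and 4. Of the 8 markers 3 rose (Birc5, Rrm2 and Tk1), or 37.5%, against 8.31% of all genes tested. These calls were lost without vehicle replicate 2 or 4 and, for Birc5, also without sulfatide replicate 1. Sulfatide replicate 1 and vehicle replicate 3 were the highest of their groups, as for the ribosomal proteins, but sulfatide replicate 3, level with vehicle replicate 3, was the lowest of its group where replicate 2 was for most ribosomal proteins. Of the 5 markers that were not called, Pcna had a log2 fold change of 0.06 (adjusted p = 0.619), Top2a 0.63 (adjusted p = 0.236) and Cdk1 0.55 (adjusted p = 0.232). The summed level of 6 neutrophil markers was 401 to 558 FPKM with sulfatide and 126 to 175 FPKM with vehicle, with S100a8 and Mmp8 higher (Mmp8 not without sulfatide replicate 2 or 3 or vehicle replicate 3 or 4). S100a8 alone averaged 419 ± 55.3 FPKM with sulfatide and 105 ± 11.7 FPKM with vehicle (SD, n = 3 each), and so made up most of the sum. S100a9 averaged 21.2 FPKM with sulfatide and 21.9 FPKM with vehicle (log2 fold change -0.15, adjusted p = 0.804), Retnlg was listed at most at 0.45 FPKM, and the defining marker Ly6g at most at 0.18 FPKM and Cxcr2 at most at 0.12 FPKM. The part of both marker lists in the result was not tested.

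The 6 general macrophage markers, each at 1 FPKM or more in every library, summed to 26930 to 38110 FPKM with sulfatide and 29530 to 34210 FPKM with vehicle, with overlapping groups. Lyz2 alone, at 25051 to 35891 FPKM over the libraries, made up most of that sum. Of the 6 markers 0 were called. The log2 fold changes were below 0 for Adgre1 (-0.31), Csf1r (-0.24) and Fcgr1 (-0.63). They were above 0 for Cd68 (0.07), Lyz2 (0.07) and Mertk (0.20). Of 8 markers of resident alveolar macrophages, Fabp1 and Krt79 were listed at 0, and the list summed to 86.4 to 233 FPKM with sulfatide and 106 to 139.5 FPKM with vehicle. T-cell markers summed to at most 0.9 FPKM and lung epithelial markers to at most 0.23 FPKM, with Cd3e, Sftpc and Krt8 at 0. B-cell markers summed to 4.11 to 4.36 FPKM with sulfatide and 3.23 to 4.10 FPKM with vehicle, with Ms4a1 at 0, and fibroblast markers to 17.3 to 23.3 FPKM with sulfatide and 18.8 to 27.0 FPKM with vehicle. Ighm, at 3.11 to 4.35 FPKM over the libraries, made up most of the B-cell sum.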

How the data were processed

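RNA of 3 sulfatide and 3 vehicle libraries was compared, with groups and replicate numbers taken from the sample titles. TRIzol-extracted RNA was, per the labels' protocols, selected for poly(A) and made into strand-specific (dUTP) paired-end libraries. The authors deposited FPKM values rounded to 2 decimals for 22800 symbols, on mm10 per the submitters' processing notes. Aligner, counting program and annotation, and whether strand was used, are not given in the sources consulted, and without counts the depth is unknown. Of the value columns, 3 matched no sample and were not used. Rows at 1 FPKM or more in 3 or more libraries (10405) were fitted as log2(FPKM + 1) with limma 3.58.1 in R 4.3.3 (eBayes with trend, 2-sided, Benjamini-Hochberg adjustment); the script was tested on simulated data. Errors of log2 fold changes are standard errors; folds are ratios of group means. An exact permutation test of 3 against 3 cannot go below 0.1. Lengths, positions and coding sequences came from GENCODE vM21, and start windows and promoters from RefSeq (GRCm38.p6). The members, lists and tests were chosen with earlier results of these data known. The genes named were the 10 largest changes among those called with groups apart, the 6 smallest, the 3 most abundant, all copies, a fixed set of members with known roles, and up to 4 genes of smallest p in other lists; others, and the sequences printed, were chosen after their values were seen. Some genes that the rule takes are not reported here. Rps23rg1 was placed among the copies after the table was seen. Alternatives were other filters, pseudocounts and scalings, array weights, a replicate block and leaving out each library; removal of the length trend and summed copies were added after seeing the data.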

Additional observations from a re-analysis of the deposited data

How the results depend on the processing

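Of 78 ribosomal protein genes, 32 were called higher, and the count was 0 without a filter on low values (56 at an unadjusted p below 0.05), 7 after TPM rescaling, 17 after quantile normalization, 3 with the replicate block, 68 with array weights, 5 after removal of the length trend, and 0 to 57 when 1 library was left out. Their median log2 fold change of 0.31 was 0.19 after quantile normalization and 0.0771 after removal of the length trend. It lay between 0.25 and 0.37 with 1 library left out, and 0 genes were called lower under any alternative. The difference of large and small subunit medians, -0.02, was -0.0035 with the replicate block, -0.037 after removal of the length trend and -0.0501 to -0.00365 with 1 library left out. Over all genes, 865 were called higher, against 204 without a filter, 467 after TPM rescaling, 297 with the replicate block, 2054 with array weights and 263 to 1420 with 1 library left out. Of those lower, 1078, there were 447 without a filter, 635 with the replicate block, 1723 with array weights and 603 to 1136 with 1 library left out. Without Saa3 in the sum, the ribosomal share with sulfatide was 12.9%, not 12.1%. The cause was not tested. For the 36 named members, 457 of 610 values under 17 alternatives stayed called or stayed uncalled, 124 lost the call and 29 gained one. These counts do not follow the sign of fold changes that were not called. Of the 78 genes, 76 had a fold change above 0 after TPM rescaling and 63 after removal of the length trend.

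The groups share only numbers 2 and 3. Deviations of same-numbered libraries from their group means had correlations of 0.16 and -0.30, while sulfatide replicate 1 and vehicle replicate 3 had 0.54. So few shared numbers cannot decide whether the numbers pair the libraries. The labels name no pairing, and the main fit used none. With the replicate block, Rpl7a, Rps27 and Rps29 were called higher, and Rps27rt lower (-0.73, adjusted p = 0.0124). In that fit sulfatide replicate 1 and vehicle replicate 4 had no partner, so the fold changes came from the libraries numbered 2 and 3 alone. Without the block, Rps27rt had a log2 fold change of 0.00 (adjusted p = 0.998).

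The FPKM carry no counts, so the precision of low genes such as Rpl32l is unknown. Values of genes with near-identical copies depend on how reads were divided. With 3 libraries a group, 1 library decides most calls.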

Other observations

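Of the 15 pseudogene symbols left out of the family, 7 were listed at 0 in all libraries. Rpl34-ps1 was the most abundant, between 138 and 230 FPKM, and the others reached at most 5.10 FPKM. Of the RNase P and RNase MRP protein genes, which process precursor RNAs and which the spelling of the family partly caught, 10 were tested, 1 rose (Pop5, log2 fold change 0.45, adjusted p = 0.0339) and 0 fell, with a median log2 fold change of 0.19. The 10.0% called higher are near the 8.31% of all genes.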
